A study of Homo sapiens with 24 samples.

Results

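The 7 genes CHRNA2, F5, ALPK2, CTNNA2, TUBA3D, AZGP1 and TMEM45B were selected by symbol from the 23207 gene symbols of the series. They were chosen because they rose with dihydrotestosterone (DHT) in these same libraries. None is on the list of 30 classic androgen-induced genes used here, which does not mean that none was known to respond to androgen. Their DHT response is therefore given as levels and fold changes with no test, and no threshold was stated for the choice. The values came from 24 RNA sequencing libraries of LNCaP, a hormone-sensitive human prostate cancer cell line, in 8 groups of 3. All cells carried a lentiviral short hairpin delivered at a multiplicity of infection of 10, and were kept as stable lines in 0.5 µg/ml puromycin after selection in 1 µg/ml. In the FBS set, cells with the non-targeting control hairpin (NTC) or with the SIRT1 hairpin shSIRT1 grew in medium with fetal bovine serum (FBS), which contains androgens. In the stripped-serum set, NTC cells and the SIRT1 knockdown 10 had 48 h of FBS medium, then 24 h of medium with charcoal-stripped serum, which holds little androgen. For a further 24 h they received vehicle, DHT at 1 nM, or the same DHT together with enzalutamide, an androgen receptor antagonist, at 10 µM. Whether 10 and shSIRT1 share a hairpin or a clone is not given in the labels, and SIRT1 loss and differences between clones cannot be told apart. They also do not say that replicates came from separate cultures, so p-values measure only the spread between these libraries, which may be technical. Hairpin tests with vehicle or DHT share libraries with the choice of the genes, so their p-values are not independent of it.

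The androgen receptor is a transcription factor held inactive until it binds testosterone or DHT. It then binds DNA at androgen response elements, often in enhancers far from the start site, and raises genes such as KLK3, which encodes prostate-specific antigen. Enzalutamide competes for the hormone pocket. SIRT1 is a deacetylase of histones and of transcription factors, the androgen receptor among its known substrates. The 7 genes have unrelated products: a subunit of a neuronal acetylcholine receptor (CHRNA2), a clotting cofactor made mainly in liver (F5), a kinase of the alpha type (ALPK2), a neuronal link between cadherins and actin (CTNNA2), a tubulin (TUBA3D), the secreted zinc-alpha-2-glycoprotein that is plentiful in seminal fluid (AZGP1) and a transmembrane protein (TMEM45B).

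Promoter sequence was found for 5 of the 7 genes, in RefSeq windows of 250 bases before to 50 bases from the start site on GRCh38.p14, while the deposited values were made on hg19. CHRNA2 and TMEM45B had no entry in that table. Both strands were searched for the full androgen response element (AGAACA, any 3 bases, TGTTCT), its half-site AGAACA (contained in the full element), the forkhead motif TGTTTAC, the TATA box TATAAA and the CCAAT box. The full element was in 0.003% of 35116 windows, the half-site in 14.785%, the forkhead motif in 3.423%, the TATA box in 11.53% and the CCAAT box in 34.614%. The CCAAT box was added after the sequences were seen. Matches to these motifs are in capitals below, and a match describes letters, not a site in use. TUBA3D and TUBA3E, its near-identical copy, are shown because both rose with DHT. Their windows matched at 280 of 302 aligned columns (92.7%) and held 5 and 6 CCAAT boxes, and 0.359% of all windows held 5 or more. The window of TUBA3C, a further copy, also held 5. TUBA3C had only 4 and 0 counts over the DHT libraries of NTC and knockdown cells.
TUBA3D, chr2:131475869-131476168, plus strand: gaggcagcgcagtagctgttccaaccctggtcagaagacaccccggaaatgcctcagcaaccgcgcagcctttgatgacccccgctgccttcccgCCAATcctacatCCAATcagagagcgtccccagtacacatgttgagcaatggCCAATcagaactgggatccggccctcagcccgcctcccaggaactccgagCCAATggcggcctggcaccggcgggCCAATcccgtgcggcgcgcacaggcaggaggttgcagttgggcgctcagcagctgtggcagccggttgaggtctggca
TUBA3E, chr2:130198390-130198689, minus strand: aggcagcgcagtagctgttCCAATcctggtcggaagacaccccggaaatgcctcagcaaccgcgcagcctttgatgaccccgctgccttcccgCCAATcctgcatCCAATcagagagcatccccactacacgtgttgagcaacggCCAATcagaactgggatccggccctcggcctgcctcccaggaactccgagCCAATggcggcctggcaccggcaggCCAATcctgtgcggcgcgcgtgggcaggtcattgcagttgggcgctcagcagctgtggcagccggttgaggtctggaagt
CTNNA2 had 4 start sites in the table. The most upstream is shown because its window was the only one of the 5 genes with androgen half-sites, 1 on each strand. AZGP1, which had 1 CpG in its window against a median of 14 over all windows, had a CCAAT box on the minus strand, read here as its complement.
CTNNA2, chr2:79185127-79185426, plus strand: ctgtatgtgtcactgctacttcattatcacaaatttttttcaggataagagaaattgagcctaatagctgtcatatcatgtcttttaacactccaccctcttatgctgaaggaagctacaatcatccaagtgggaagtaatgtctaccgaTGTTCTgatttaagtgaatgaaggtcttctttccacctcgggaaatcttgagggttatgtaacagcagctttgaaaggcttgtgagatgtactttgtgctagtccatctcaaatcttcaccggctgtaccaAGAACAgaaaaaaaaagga
AZGP1, chr7:99975982-99976281, minus strand: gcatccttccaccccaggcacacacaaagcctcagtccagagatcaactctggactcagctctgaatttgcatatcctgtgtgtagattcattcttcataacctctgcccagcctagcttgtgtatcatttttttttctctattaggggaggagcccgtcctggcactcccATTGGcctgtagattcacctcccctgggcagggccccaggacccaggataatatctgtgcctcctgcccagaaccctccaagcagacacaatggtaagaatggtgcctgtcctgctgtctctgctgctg
F5 is shown for a window with none of these motifs and a high DHT response, and the ALPK2 window also had none.
F5, chr1:169586432-169586731, minus strand: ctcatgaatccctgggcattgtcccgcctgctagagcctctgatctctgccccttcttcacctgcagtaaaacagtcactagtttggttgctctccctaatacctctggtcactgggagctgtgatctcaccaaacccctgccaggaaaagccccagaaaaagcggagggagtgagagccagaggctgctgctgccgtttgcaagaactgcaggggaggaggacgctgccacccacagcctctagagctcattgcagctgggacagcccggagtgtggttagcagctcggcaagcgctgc

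Total counts were 11.9 to 14.2 M (mega) per library in the FBS set and 25.2 to 35.1 M in the stripped-serum set. RSEM shortened transcripts by different lengths in the 2 sets, so their levels are set side by side and not tested against each other. SIRT1 mRNA was lower with the hairpin in every comparison, for example 38.2 ± 1.60 CPM (counts per M counts; SD, n = 3) in FBS NTC and 8.11 ± 0.788 CPM in shSIRT1 cells (log2 fold change -2.24, adjusted p = 8e-06), and 57.0 ± 1.30 and 19.5 ± 1.94 CPM with vehicle (-1.55, adjusted p = 2.01e-09). All 10 prostate luminal markers reached 1 TPM (transcripts per M transcripts, a length-corrected level), with summed levels of 2713 to 3371 TPM in stripped serum and 3017 to 3438 TPM in FBS. None of 5 neuronal markers reached 1 TPM in any group, and their sum was at most 0.31 TPM in a library. Of 5 hepatocyte markers 3 did (ALB, FGB and TTR), with sums of 4.94 to 25.8 TPM over all libraries. TTR, which encodes the thyroid hormone carrier transthyretin, had means of 19.2 and 18.7 TPM with DHT in NTC and knockdown cells, against 9.60 and 8.62 with vehicle. Its part in the F5 and AZGP1 values was not tested. Markers of other cells reached 1 TPM in 3 of 6 basal, 2 of 6 fibroblast, 2 of 3 endothelial and 1 of 5 leukocyte genes. Basal sums were 17.0 to 46.6 TPM in stripped serum, with the 6 groups overlapping, and 8.34 to 13.4 TPM in FBS. Fibroblast sums were at most 10.8 TPM in a library. Endothelial sums were 0.53 to 1.65 TPM in stripped serum and 3.77 to 4.16 TPM in FBS. Leukocyte sums were 1.47 to 2.71 TPM in stripped serum and 7.07 to 10.4 TPM in FBS.

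All 7 genes passed the filter on low counts in every fit. Every DHT library was above every vehicle library of its line, which follows in part from the choice of the genes. The share of all genes without such overlap was not computed. With DHT in NTC cells the median log2 fold change of the 7 was 3.01, against -0.00203 over the 14558 genes tested, of which 29.9% were called in either direction, 17.4% higher and 12.5% lower. In knockdown 10 cells it was 3.0, against 0.00775, with 22.2% of all genes called, 13.3% higher and 8.92% lower. Ordered by fold in NTC cells, TUBA3D was 5th, CHRNA2 6th, CTNNA2 14th, F5 16th, ALPK2 18th and AZGP1 35th of all genes tested. TMEM45B was 1378th, with a 1.35-fold rise, and so fits the description of a large rise less well. In knockdown cells the places were 15, 8, 14, 50, 46 and 22 in the same order, and TMEM45B was 285th with a 2.22-fold rise. For scale, KLK3 and KLK2, the 2 kallikrein genes most used as androgen reporters, were 13th and 7th in NTC cells (log2 fold changes 3.23 and 3.72). The plot of DHT responses in both lines places 6 of the 7 beside them.

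**Figure D1:**
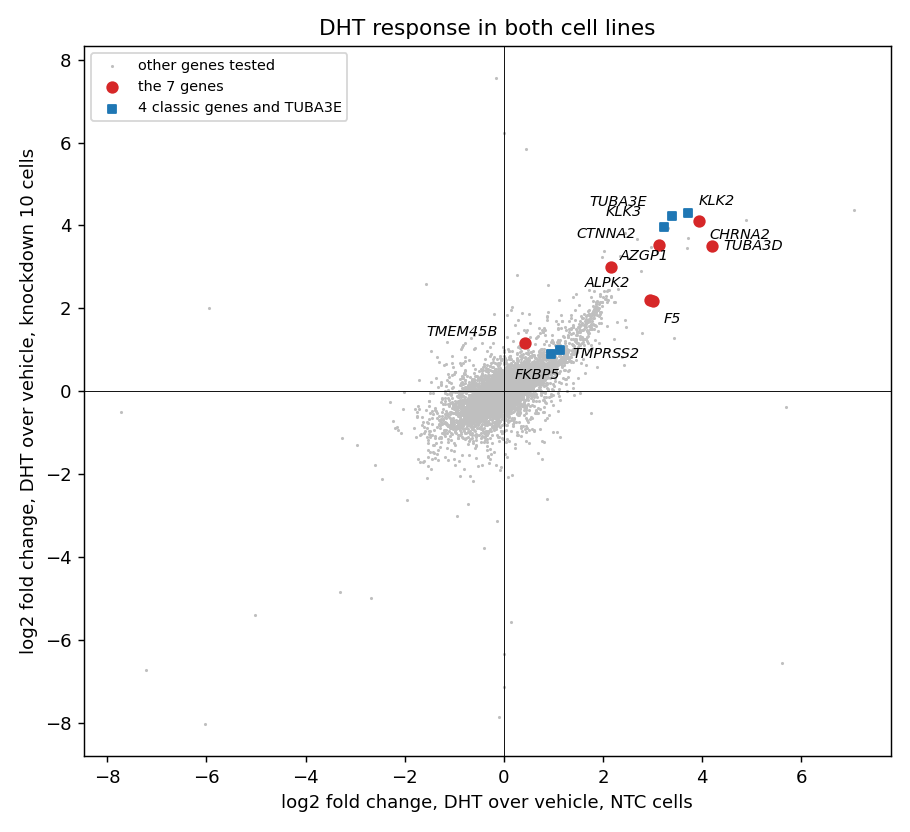
Log2 fold change with DHT over vehicle in NTC cells (x axis) and knockdown 10 cells (y axis) for 14558 genes in grey, the 7 genes in red, and KLK3, KLK2, TMPRSS2, FKBP5 and TUBA3E in blue. Of the red points, 6 lie at 2.16 or more on both axes, and TMEM45B lies at 0.43 and 1.15.

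Per length, AZGP1 was the most abundant of the 7 with DHT in NTC cells, at 58.8 ± 12.8 TPM, where KLK3 was at 297 TPM. TMEM45B followed at 10.5 ± 0.582 TPM, then TUBA3D at 5.52 ± 1.32 TPM. CHRNA2 (2.66 ± 0.824 TPM), F5 (2.18 ± 0.135), ALPK2 (1.84 ± 0.161) and CTNNA2 (1.51 ± 0.0709) came last, with the CHRNA2 libraries overlapping those of F5 and of ALPK2. These genes thus had large folds from low starting levels: CHRNA2, CTNNA2, ALPK2, F5 and TUBA3D were all under 0.5 TPM with vehicle in NTC cells. In bulk RNA a change in the share of cells that express a gene and a change per cell cannot be told apart.

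**Figure D2:**
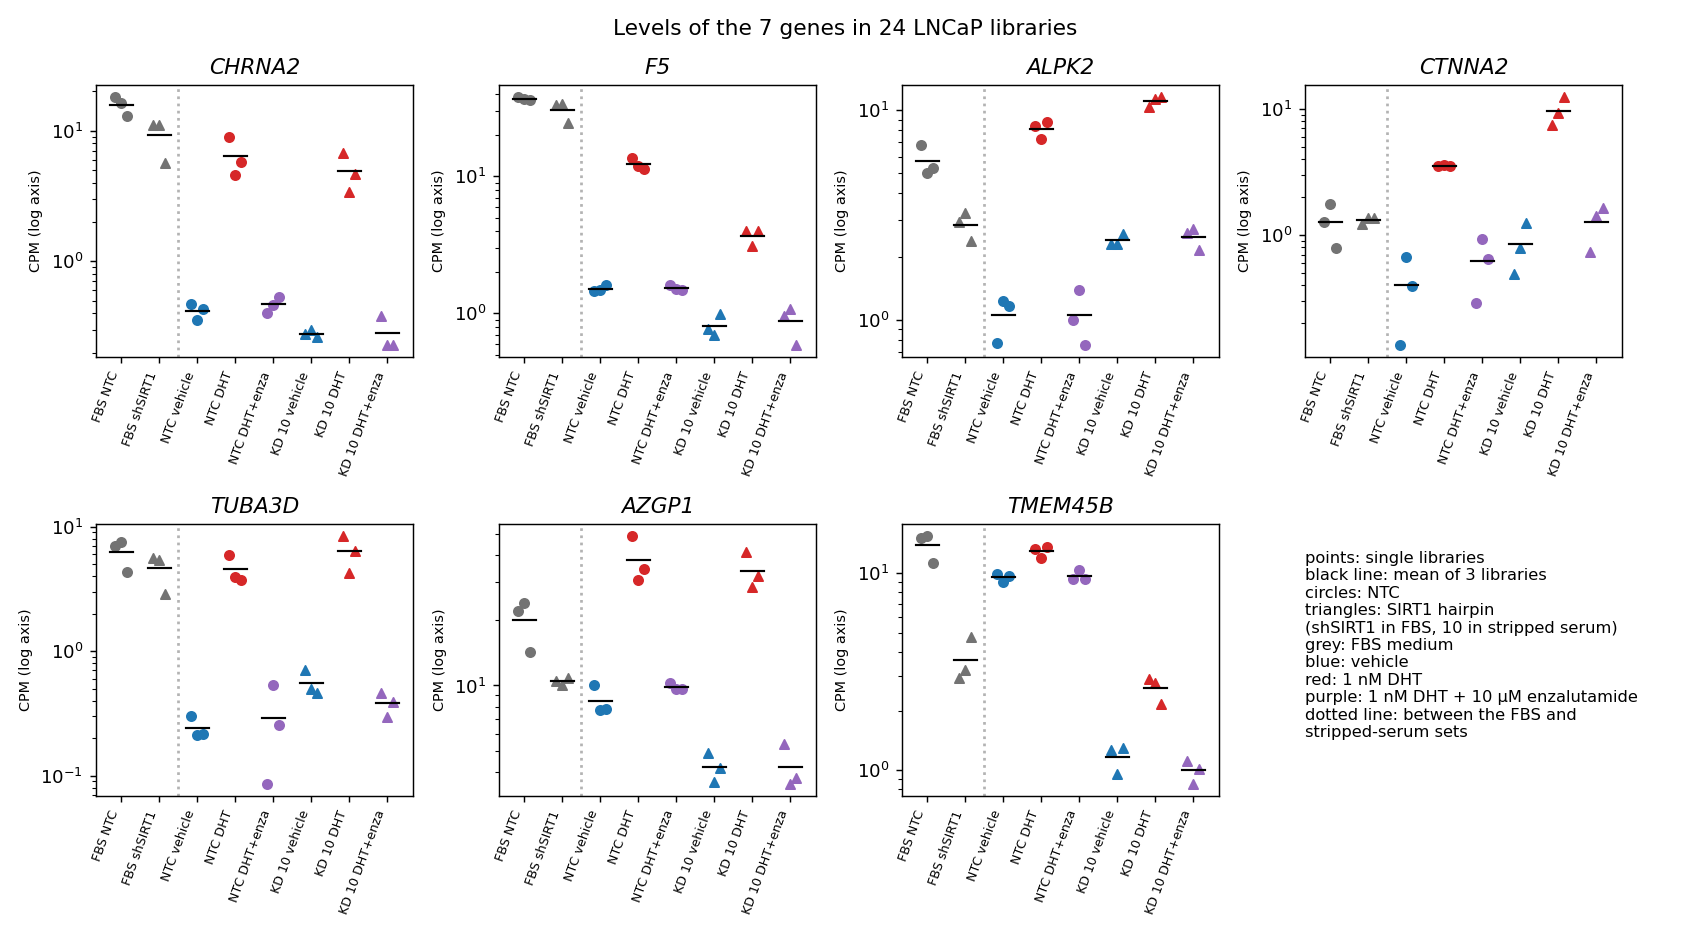
CPM of each gene on a log axis in single libraries, with circles for NTC, triangles for the SIRT1 hairpin, grey for FBS, blue for vehicle, red for DHT and purple for DHT with enzalutamide, and a line at each mean of 3. In every panel the red points lie above the blue and purple points of the same line, and in TMEM45B all NTC points lie above all triangles.

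CHRNA2, the receptor subunit, rose from a low level, 38 counts over the 3 NTC vehicle libraries. With vehicle the 3 NTC libraries had 0.470, 0.353 and 0.427 CPM, and with DHT 8.93, 4.58 and 5.77 CPM, a 15.3-fold difference (log2 3.93, SE 0.30). With enzalutamide they had 0.402, 0.463 and 0.535 CPM, overlapping vehicle. The knockdown libraries went from 0.275, 0.296 and 0.264 CPM to 6.73, 3.37 and 4.65 CPM with DHT and were at 0.383, 0.229 and 0.229 CPM with enzalutamide. The knockdown DHT values overlapped the NTC DHT values, while the vehicle and enzalutamide values were below NTC in every library. CHRNA2 did not pass the hairpin test in stripped serum with vehicle (log2 fold change -0.58, adjusted p = 0.341), DHT (-0.39, adjusted p = 0.179) or enzalutamide (-0.75, adjusted p = 0.203), all with edgeR's quasi-likelihood test and Benjamini-Hochberg adjustment. With DHT the value ran from -0.69 to -0.09 with single libraries left out, and it passed without knockdown DHT library 1 (adjusted p = 0.0229). In FBS medium the NTC libraries had 18, 16.2 and 12.8 CPM and shSIRT1 libraries 11.1, 11.1 and 5.68 CPM. All shSIRT1 libraries were lower, but the log2 fold change of -0.75 (SE 0.23) had an adjusted p of 0.128 in edgeR. It was 0.00213 when replicate number entered as a block and 0.0336 in DESeq2, and up to 0.538 in the other alternatives.

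F5, the clotting cofactor, rose with DHT in both lines and was lower in knockdown 10 than in NTC cells under every treatment. NTC libraries had 1.44, 1.48 and 1.62 CPM with vehicle and 13.5, 11.9 and 11.3 CPM with DHT, 8.05-fold (log2 3.01, SE 0.16). Knockdown libraries went from 0.765, 0.690 and 0.989 CPM to 3.99, 3.11 and 3.97 CPM, 4.51-fold (log2 2.17, SE 0.19). The difference between these rises was not tested, since DHT chose the gene. Enzalutamide libraries were at 1.61, 1.5 and 1.49 CPM in NTC and 0.958, 1.08 and 0.589 CPM in knockdown cells, near their vehicle levels. F5 fell with knockdown 10 under all 3 treatments, by a log2 of 0.90 with vehicle (adjusted p = 0.00226), 1.73 with DHT (SE 0.15, adjusted p = 8.59e-08) and 0.81 with enzalutamide (adjusted p = 0.0045), in edgeR. No knockdown library reached any NTC library of the same treatment. The vehicle and enzalutamide calls were lost in limma on log2(TPM + 1) (-0.15 and -0.14, adjusted p = 0.0873 and 0.118), where the F5 means of 0.147 to 0.270 TPM lie well below the added 1. In FBS medium F5 was at 37.7, 36.4 and 35.9 CPM in NTC and 33.2, 33.9 and 24.6 CPM in shSIRT1 cells, which did not pass (log2 -0.26, adjusted p = 0.279).

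AZGP1, the secreted glycoprotein, rose with DHT to similar levels in both lines. NTC libraries went from 10.0, 7.70 and 7.75 CPM with vehicle to 48.7, 30.7 and 34.2 CPM with DHT, 4.46-fold, and to 10.3, 9.62 and 9.60 CPM with enzalutamide. Knockdown libraries went from 4.87, 3.58 and 4.19 CPM to 41.0, 28.5 and 31.9 CPM, 7.99-fold, and to 5.37, 3.53 and 3.77 CPM. The knockdown lay below NTC in every library with vehicle and with enzalutamide and overlapped NTC with DHT. AZGP1 fell with the hairpin with vehicle (log2 fold change -1.01, SE 0.20, adjusted p = 0.000921) and with enzalutamide (-1.23, SE 0.20, adjusted p = 0.000149), and did not pass with DHT (-0.17, SE 0.16, adjusted p = 0.431). That last value was 0.04 without NTC DHT library 1. In FBS medium the NTC libraries had 22, 23.9 and 14.3 CPM and shSIRT1 libraries 10.5, 10.1 and 10.8 CPM, with no overlap (-0.95, SE 0.18, adjusted p = 0.0275). Without NTC library 1 or 2 or any 1 of the shSIRT1 libraries this call was lost (adjusted p up to 0.124). It was also lost in limma on log2(TPM + 1) and log2(TPM + 0.1) (adjusted p = 0.0521 and 0.0509). With FBS libraries 1 and 2 of each group summed, the edgeR adjusted p was 0.268.

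CTNNA2, the neuronal alpha-catenin, had its highest levels in knockdown cells with DHT. NTC libraries had 0.134, 0.671 and 0.397 CPM with vehicle, 3.51, 3.57 and 3.52 CPM with DHT and 0.287, 0.927 and 0.647 CPM with enzalutamide. Knockdown libraries had 0.490, 0.789 and 1.25 CPM, then 7.42, 9.31 and 12.3 CPM, and 0.728, 1.41 and 1.64 CPM with enzalutamide. The DHT rises were 8.81-fold in NTC and 11.5-fold in knockdown cells. With DHT the knockdown was above NTC in every library (log2 fold change 1.46, SE 0.30, adjusted p = 0.000871), while the vehicle and enzalutamide values overlapped. The log2 fold change was 1.07 in each of the latter (adjusted p = 0.105 and 0.064, or 0.0289 and 0.0124 with the replicate block). Without NTC vehicle library 2 or knockdown vehicle library 1 the vehicle adjusted p was 0.0434 or 0.0491, and without NTC library 2 or knockdown library 1 with enzalutamide it was 0.0359 or 0.027. FBS levels were 1.26, 1.75 and 0.786 CPM in NTC and 1.22, 1.37 and 1.36 CPM in shSIRT1 cells (0.04, adjusted p = 0.963), a direction that turned to -0.19 without NTC library 3. The deposited average transcript length of CTNNA2 was 3988 bases in 16 of 18 stripped-serum libraries and in 3 of 6 FBS libraries, and lay between 3853 and 3988 in the others, and RSEM's average moves when reads are assigned to other transcripts. The other 6 genes had 1 constant length each.

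TUBA3D, the tubulin, had the highest fold of the 7 in NTC cells. NTC libraries went from 0.302, 0.212 and 0.214 CPM with vehicle to 5.95, 3.94 and 3.73 CPM with DHT, 18.5-fold, and to 0.0861, 0.535 and 0.253 CPM with enzalutamide. Knockdown libraries went from 0.704, 0.493 and 0.462 CPM to 8.38, 4.24 and 6.31 CPM, 11.3-fold, and to 0.460, 0.294 and 0.393 CPM. Every knockdown vehicle library was above every NTC one, but the log2 fold change of 1.18 (SE 0.50) had an adjusted p of 0.0756, and 0.0426 with the replicate block. The vehicle groups hold only 22 and 52 counts over 3 libraries. DHT and enzalutamide values overlapped between lines (0.47 and 0.45, adjusted p = 0.166 and 0.548). The enzalutamide value was 0.0026 without NTC library 1 and 1.14 without NTC library 2, and the DHT value passed without knockdown DHT library 2 (adjusted p = 0.0471). In FBS medium NTC libraries had 6.94, 7.56 and 4.33 CPM and shSIRT1 libraries 5.59, 5.39 and 2.88 CPM (-0.44, adjusted p = 0.461).

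Reads of TUBA3D can be shared with its copies TUBA3C and TUBA3E. In the GENCODE transcripts the TUBA3D transcript of 1546 bases was 97.7% identical to TUBA3E and 94.3% to TUBA3C. Of its 50-base windows, 44.6% occurred unchanged in TUBA3E and 14.8% in TUBA3C, and of its 100-base windows 19.8% and 2.1%. RSEM divides such reads between genes by estimate. TUBA3D held 65.9 to 86.7% of the summed counts of the 3 genes in the 8 groups, and TUBA3C held at most 13 counts in a group. TUBA3E passed the DHT test in both lines, with log2 fold changes of 3.40 (SE 0.56, adjusted p = 0.000172) and 4.22 (SE 0.61, adjusted p = 7.02e-05). The 2 copies are thus not cleanly separable, and the summed level of all 3 rose from 0.370 ± 0.125 CPM to 5.91 ± 1.34 CPM in NTC and from 0.638 ± 0.136 to 7.79 ± 2.75 CPM in knockdown cells.

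**Figure D3:**
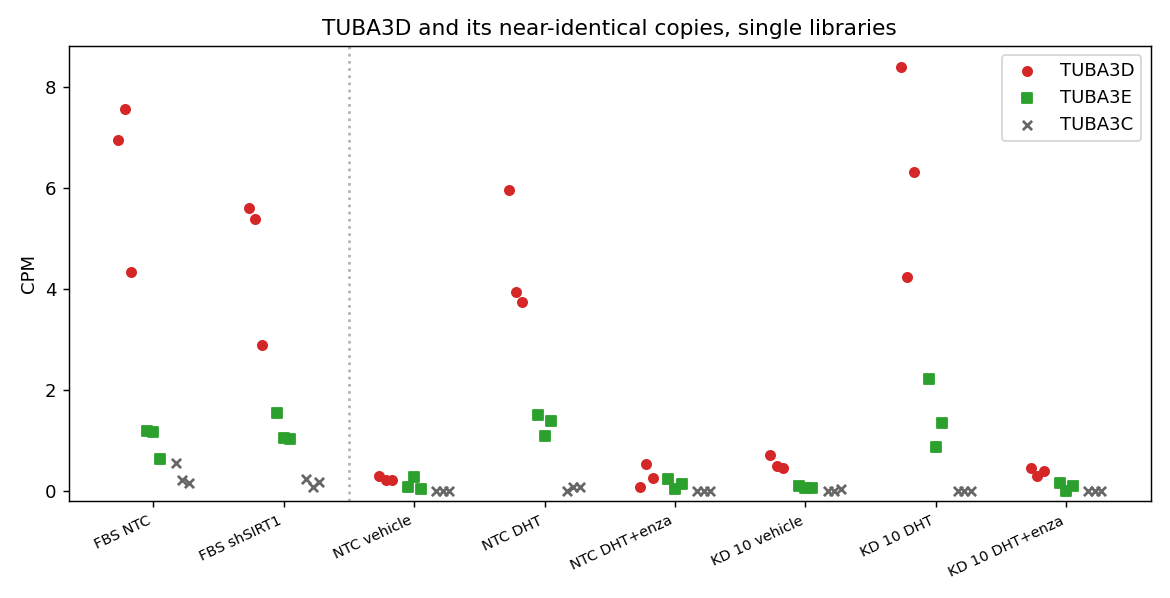
CPM of TUBA3D (circles), TUBA3E (squares) and TUBA3C (crosses) in single libraries of the 8 groups, on a linear axis. With DHT, TUBA3D libraries lie between 3.73 and 8.38 CPM and TUBA3E libraries between 0.869 and 2.22 CPM, and no TUBA3C library exceeds 0.561 CPM in any group.

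ALPK2, the kinase, was lower with shSIRT1 in FBS and higher with knockdown 10 in stripped serum. NTC libraries went from 0.773, 1.24 and 1.16 CPM with vehicle to 8.39, 7.27 and 8.81 CPM with DHT, 7.69-fold, and to 1.00, 1.39 and 0.760 CPM with enzalutamide. Knockdown libraries went from 2.30, 2.30 and 2.57 CPM to 10.4, 11.3 and 11.5 CPM, 4.63-fold, and to 2.61, 2.71 and 2.16 CPM. Knockdown 10 was above NTC in every library under each treatment. ALPK2 rose with it by a log2 fold change of 1.17 with vehicle (SE 0.19, adjusted p = 0.000149), 0.44 with DHT (SE 0.14, adjusted p = 0.0186) and 1.26 with enzalutamide (SE 0.19, adjusted p = 7.05e-05). The DHT call was lost without NTC DHT library 2 (adjusted p = 0.0862) or knockdown DHT library 3 (adjusted p = 0.0669). It was also lost in limma on log2(TPM + 0.1) (0.40, adjusted p = 0.0807). In FBS medium NTC libraries had 6.80, 5.02 and 5.27 CPM and shSIRT1 libraries 2.92, 3.22 and 2.38 CPM, a fall (-1.0, SE 0.20, adjusted p = 0.0327). That call was lost without NTC library 1 or 2 or any 1 of the shSIRT1 libraries (adjusted p up to 0.154). It was also lost in limma on log2(TPM + 1) and log2(TPM + 0.1) (adjusted p = 0.0819 and 0.0862). With FBS libraries 1 and 2 of each group summed, the edgeR adjusted p was 0.207. The FBS and vehicle log2 fold changes differed by 2.22 (adjusted p = 0.000288), where medium, set and hairpin line cannot be told apart.

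TMEM45B, the transmembrane protein gene, was the one most affected by the hairpin and least by DHT. NTC libraries had 9.95, 9.05 and 9.71 CPM with vehicle, 13.3, 12 and 13.6 CPM with DHT and 9.35, 10.4 and 9.34 CPM with enzalutamide. Knockdown libraries had 1.25, 0.953 and 1.29 CPM, then 2.90, 2.75 and 2.16 CPM, and 1.11, 0.850 and 1.02 CPM. The knockdown fell 8.18-fold below NTC with vehicle (log2 fold change -3.03, SE 0.13, adjusted p = 3.76e-11), 4.97-fold with DHT (-2.31, SE 0.12, adjusted p = 2.83e-10) and 9.78-fold with enzalutamide (-3.29, SE 0.14, adjusted p = 1.94e-11). These were the 52nd, 80th and 48th lowest log2 fold changes of 14558. In FBS medium NTC libraries had 15.1, 15.5 and 11.2 CPM and shSIRT1 libraries 2.92, 3.22 and 4.75 CPM, 3.85-fold lower (-1.95, SE 0.20, adjusted p = 0.00174). TMEM45A, the only other gene of its family, also fell with the hairpin in all 4 comparisons (log2 fold changes -1.75 in FBS, -1.74, -2.0 and -2.08 in stripped serum, adjusted p = 0.0133 to 9.33e-06), but its DHT changes did not pass.

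Across the 7 genes, the hairpin changed 3 in FBS medium, all lower (TMEM45B, ALPK2, AZGP1), where 2.71% of 14329 genes were called, 0.509% higher and 2.21% lower. It changed 4 with vehicle (1 higher, 3 lower), where 34.6% of 14558 genes were called (15.5% higher, 19.1% lower). It changed 4 with DHT (2 higher, 2 lower; background 43%, with 19.5% higher and 23.5% lower) and 4 with enzalutamide (1 higher, 3 lower; background 34.6%, with 15.4% higher and 19.2% lower). The FBS count fell to 1 of 7, TMEM45B, without NTC library 1 or 2 or any 1 of the shSIRT1 libraries, and also with libraries 1 and 2 of each group summed, so that TMEM45B is the FBS call that held throughout. The hairpin change with vehicle was compared with that in FBS in a fit added after seeing the data, where 13.8% of 15345 genes passed, 7.47% higher and 6.29% lower. It differed in 3 of the 7, higher with vehicle in ALPK2 and TUBA3D and lower in TMEM45B. The vehicle libraries also entered the choice of the genes, so these p-values are not independent of it. Hairpin differences with enzalutamide were also compared with those with vehicle, again after seeing the data. None of the 7 passed in edgeR (lowest unadjusted p = 0.245, TMEM45B), and 0% of 14558 genes did.

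**Figure D4:**
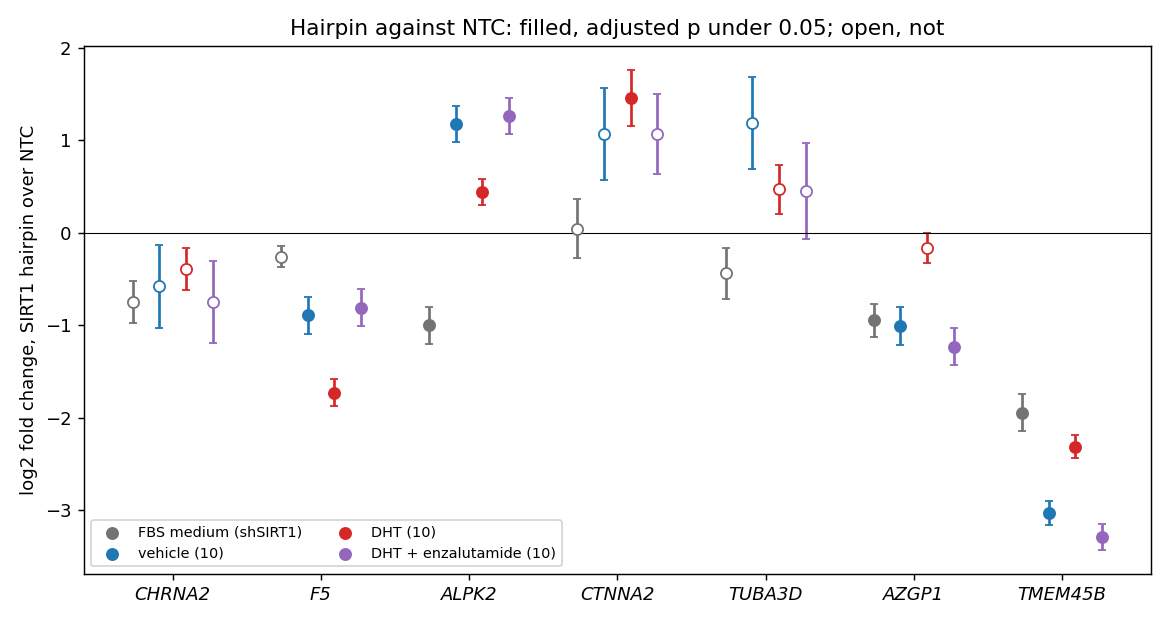
Log2 fold change of SIRT1 hairpin over NTC with its standard error for each gene in FBS (grey), vehicle (blue), DHT (red) and DHT with enzalutamide (purple), filled where the adjusted p was under 0.05. TMEM45B is filled and below -1.9 in all 4, and ALPK2 is at -1.0 in FBS and above 0 in the other 3.

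With enzalutamide the libraries overlapped the vehicle libraries of their line in every gene except TUBA3D in knockdown cells. There all 3 enzalutamide libraries were below all 3 vehicle libraries, with a fitted difference of 1.46-fold, but the margin was narrow. The highest enzalutamide library had 0.460 CPM and the lowest vehicle library 0.462 CPM, in groups of 33 and 52 counts. The fitted fold of CTNNA2 with enzalutamide over vehicle was 1.52 in NTC and 1.51 in knockdown cells. The share of all genes with such overlap was not computed. Over all genes tested, the median absolute log2 fold change of enzalutamide over vehicle was 0.058 in NTC and 0.057 in knockdown cells. With RLE scaling in edgeR, 0 and 1 of 14558 genes were called between enzalutamide and vehicle. Levels near vehicle were therefore not particular to these 7 genes. The share of the DHT rise still present with the antagonist was between -12 and 7.01% over the 7 genes and 2 lines, where a negative share means a level under vehicle. Some of the shares rest on low counts, though AZGP1 in NTC cells had 771 vehicle and 970 enzalutamide counts. The CTNNA2 share of 7.01% in NTC cells comes from 36 vehicle and 59 enzalutamide counts. The CTNNA2 log2 fold change of enzalutamide over vehicle in NTC cells, 0.60, was 0.20 without NTC vehicle library 1 and 1.15 without NTC vehicle library 2. The share of -12% is that of TMEM45B in knockdown cells, where DHT raised the mean only from 1.16 to 2.61 CPM. These values share the vehicle and DHT libraries with the choice of the genes and were not tested. Of 30 classic androgen-induced genes, 29 were tested in stripped serum. Of these 24 rose and 1 fell with DHT in NTC cells (median log2 fold change 0.78), and 23 rose and 0 fell in knockdown cells (0.74). With the hairpin, 6 of 30 classic genes fell and 0 rose in FBS, where 2.21% of all genes fell. Of the 29 tested in stripped serum, 13 fell and 1 rose with vehicle, 14 fell and 1 rose with DHT, and 13 fell and 1 rose with enzalutamide, where 19.1, 23.5 and 19.2% of all genes fell.

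Relatives of the 7 genes were listed by family to show whether a family moved as a whole. Of 63 other family genes, 34 were tested in stripped serum, and with DHT 7 rose and 8 fell in NTC cells (all genes: 17.4% higher, 12.5% lower) and 7 rose and 6 fell in knockdown cells (13.3% and 8.92%). In knockdown cells the 13 called dropped to 8 without DHT library 1. Of 6 other alpha-tubulins tested, 4 rose with DHT in NTC cells: TUBA3E, TUBA1B (log2 fold change 0.95, adjusted p = 2.06e-06), TUBA1C (0.50, adjusted p = 0.00114) and TUBA4A (0.47, adjusted p = 0.0448). Reads of TUBA3E can be shared with TUBA3D, so its rise is not separate from that of TUBA3D. TUBA1A fell (-1.20, adjusted p = 6.72e-05). Among 7 other nicotinic subunits tested, CHRNA5 rose (0.74, adjusted p = 1.15e-05) and CHRNA4 fell (-0.99, adjusted p = 0.0111). Of 7 other clotting genes tested, TFPI, an inhibitor of coagulation, rose (0.48, adjusted p = 0.000224), as did LMAN1, the receptor that carries factors V and VIII out of the endoplasmic reticulum (0.44, adjusted p = 0.00188), and F8 fell (-0.54, adjusted p = 1.69e-06) with PROCR. The alpha-catenins CTNNA1 (-0.16, adjusted p = 0.00815) and CTNNA3 (-0.91, adjusted p = 0.037) fell, in contrast with CTNNA2. Of 7 other MHC class I-like genes tested 3 fell, PROCR (-0.79), HFE (-0.62) and MR1 (-0.32), and 0 rose. Of 4 other alpha-kinases tested none passed with DHT in NTC cells, and EEF2K rose in knockdown cells (0.32, adjusted p = 0.00725).

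With the hairpin, 15 of the 34 family genes tested were called with vehicle (9 higher, 6 lower), 15 with DHT (9 and 6) and 14 with enzalutamide (8 and 6), beside 34.6, 43 and 34.6% of all genes. In FBS medium 1 of 36 was higher and 1 lower, beside 2.71%. Those that passed in stripped serum under all 3 treatments include the following. CTNNA3 rose in knockdown 10 cells by log2 fold changes of 2.37, 2.76 and 2.35 with vehicle, DHT and enzalutamide (adjusted p = 1.74e-06, 5.75e-07 and 1.49e-06). TUBA1B fell in all 3 (-0.66, -0.76 and -0.58), and F8 rose in all 3 (0.39, 0.46 and 0.35), opposite to F5. CHRNA5 fell in all 3 (-0.74, -0.92 and -0.89). ALPK1, a relative of ALPK2, rose in all 3 (0.49, 0.48 and 0.61).

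Over the 18 stripped-serum libraries, the log2 levels of the 7 genes correlated with each other at Pearson's r of -0.10 to 0.96 (21 pairs, median 0.80). These libraries share the same treatments, and the genes were chosen for a DHT rise in them, so high values follow in part from the choice. Pairs of other genes were not computed for comparison. CHRNA2 with TUBA3D was the closest pair and TMEM45B with ALPK2 the least alike. The genes closest to each, among 12014 compared, were ELOVL5 (r = 0.99), a fatty acid elongase, for CHRNA2 and PCNA, RFC2 and POLA2 (0.98), all replication genes, for F5. MAOA and SLC45A3 (0.98) led for AZGP1, UGT2B28 (0.98), an enzyme that glucuronidates androgens, for TUBA3D, MANEAL (0.97) for ALPK2, SPECC1L (0.95) for CTNNA2 and LDHB (0.99) for TMEM45B.

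Levels in FBS medium, set beside the other set without a test, stood on both sides of the DHT levels. F5 was at 36.7 ± 0.920 CPM and CHRNA2 at 15.7 ± 2.61 CPM in FBS NTC cells, against 12.2 ± 1.15 and 6.42 ± 2.25 CPM with DHT in stripped serum. CTNNA2 was at 1.26 ± 0.479 CPM in FBS against 3.53 ± 0.0317 CPM with DHT, and AZGP1 at 20.1 ± 5.09 CPM against 37.9 ± 9.54 CPM.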

How the data were processed

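RNA sequencing was analysed for 24 LNCaP libraries in 8 groups of 3. Per the labels' protocols, about 500 ng of RNA went into each stranded mRNA library. CASAVA 1.8.2 and RSEM 1.2.31 on hg19 are listed in the submitters' processing notes, and the aligner is not given in the sources used here. The authors deposited RSEM expected counts and TPM per gene symbol. Expected counts were rounded to whole numbers and tested in edgeR 4.0.16 (R 4.3.3) with quasi-likelihood F tests, two-sided, TMM scaling and filterByExpr by group. The 6 FBS and 18 stripped-serum libraries were fitted apart, because RSEM took 50 bases off transcript lengths in FBS and 224 to 252 in stripped serum. This left 14329 and 14558 genes, with biological coefficients of variation of 7.83 and 7.79%. A call needed an adjusted p under 0.05 (Benjamini-Hochberg over all genes of a comparison). A standard error is the log2 fold change divided by the square root of F. Levels in CPM are counts over TMM-scaled library totals. The fits were tested on simulated data first.

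The members and lists were chosen with earlier results of these data known. Named genes were the 7 members, SIRT1, 4 classic genes, family genes at 1 TPM or more in a group or in a list with 5 or fewer called, and for each member the 3 genes with the highest r of log2(CPM + 0.5) among those averaging a log2 CPM of 1 or more. Same-numbered libraries deviated together in FBS (r = 0.14, 0.16 and 0.35), vehicle (0.36, 0.23 and 0.12) and enzalutamide (0.27, 0.15 and 0.11), so the replicate block is given beside calls it changed there. In FBS the differently numbered pairs of libraries 1 and 2 were as high (0.15 and 0.12), so the numbers there part library 3 from libraries 1 and 2. The labels do not say what the numbers mark. Libraries 1 and 2 of each FBS group were close (chi-square per gene 1.55 and 1.60, against 3.79 or more in other pairs), above sampling noise, and were kept apart. The alternatives were RLE scaling, no filter, DESeq2 1.42.0, limma 3.58.1 on log2(TPM + 1) and log2(TPM + 0.1), the replicate block, each library left out, and those FBS libraries summed. An interaction of hairpin and set used a fit of 12 FBS and vehicle libraries with 15345 genes. RefSeq promoters are from GRCh38.p14, and no hg19 gene coordinates were used.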

Additional observations from a re-analysis of the deposited data

Results flagged for a closer look

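The change with the SIRT1 hairpin differed between vehicle in stripped serum (knockdown 10) and FBS medium (shSIRT1) in 3 of the 7 genes, in an edgeR fit of the 12 libraries chosen after seeing the data, where 13.8% of 15345 genes passed. ALPK2 fell in FBS and rose with vehicle, a difference of 2.22 in log2 fold change (SE 0.29, adjusted p = 0.000288), and this held in all 17 alternatives run. TMEM45B fell in both, by 1.04 more with vehicle (difference -1.04, SE 0.27, adjusted p = 0.0176), and held in all 17. TUBA3D differed by 1.66 (SE 0.50, adjusted p = 0.04), which did not hold in 10 of 17 alternatives: without FBS NTC library 1 or 2, shSIRT1 library 2 or any 1 of the 6 vehicle libraries (adjusted p up to 0.107), and with FBS libraries 1 and 2 summed (0.0878). Medium, set and hairpin line cannot be told apart in these differences. The vehicle libraries also entered the choice of the genes, so these p-values are not independent of it.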

How the results depend on the processing

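Of the single-gene hairpin results under alternatives, 304 kept their direction and side of the threshold, 16 gained the call, 21 lost it and 2 reversed. The number of the 7 genes called in FBS medium was 3, and 1 with limma on log2(TPM + 1), on log2(TPM + 0.1) and with FBS libraries 1 and 2 summed. It was 4 with DESeq2 and with the replicate block, which added CHRNA2. It ranged from 1 to 3 with single libraries left out. The reversed hairpin values were CTNNA2 in FBS (-0.19 without NTC library 3, range -0.192 to 0.342 over single libraries left out) and AZGP1 with DHT (0.044 without NTC library 1, range -0.335 to 0.044). Of the FBS-to-vehicle interactions, 104 were unchanged in this sense, 1 gained, 10 lost and 4 reversed: CHRNA2 (-0.0394 without shSIRT1 library 3, range -0.0394 to 0.354) and AZGP1 (range -0.173 to 0.158, with 0.158, 0.113 and 0.0856 without FBS NTC library 3, NTC vehicle library 1 and knockdown vehicle library 2). The cause was not tested. DESeq2 also called CTNNA2 (adjusted p = 0.0385) and TUBA3D (0.0327) with vehicle and CTNNA2 with enzalutamide (0.0272). Of the DHT and enzalutamide fold changes, 453 moved by less than the replicate spread and 51 by more: 26 with limma on log2(TPM + 1), 14 on log2(TPM + 0.1) and 11 with a single library left out. The CHRNA2 DHT log2 fold change in NTC cells of 3.93 became 1.62 and 3.30 on those scales, and that of CTNNA2, 3.14, became 3.68 without NTC vehicle library 2. Counts of called genes in stripped serum stayed within 1.5 times of 4. With the replicate block, 1676 genes were called in FBS medium against 389, and without NTC library 3 it was 926. The block moved calls in CHRNA2 in FBS, CTNNA2 and TUBA3D with vehicle and CTNNA2 with enzalutamide. With DHT same-numbered libraries correlated at 0.30, 0.16 and 0.078, not all over 0.1, and the block gave CHRNA2 an adjusted p of 0.0263. It changed no other call of the 7. Low counts limit CHRNA2, CTNNA2 and TUBA3D with vehicle, where a group of 3 libraries held 22 to 78 counts. They also limit F5 in knockdown cells, which held 76 counts with vehicle and 76 with enzalutamide.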

Other observations

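In the DHT groups, library 1 had the highest CHRNA2, F5, TUBA3D and AZGP1 levels of its group in both lines, with F5 in knockdown library 3 close behind (3.97 against 3.99 CPM). CHRNA2 was at 8.93 CPM in NTC library 1 against 4.58 and 5.77 in the others, and at 6.73 in knockdown library 1 against 3.37 and 4.65. ALPK2, CTNNA2 and TMEM45B did not have it in both lines. The labels do not say what the library numbers mark.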
